A study of Mus musculus with 24 samples.

Results

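The 4 genes Glo1, Dnah8, Glp1r and Btbd9 lie next to each other on mouse chromosome 17, over a segment that is known to be present in extra copies in the inbred strain DBA/2J. They were taken by symbol as 4 of the 33902 rows of the single-nucleus RNA-seq (snRNA-seq) table and compared between strains in every usable cell type. The 143 snATAC-seq peaks that overlapped a member or the 2 kb beyond its ends, of 300819 peaks, were read beside them. The groups were C57BL/6J (B6) and DBA/2J (D2), both untreated inbred lines. Each strain had 2 snRNA-seq and 2 snATAC-seq libraries, from microdissected ventral hippocampus of males aged 10 to 16 weeks, with about 2 animals pooled in each library. The 16 methylation samples among the 24 samples of the series were not analysed here. All counts are sums over the nuclei of one cell type in one library, so the library was the replicate.

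Glyoxalase 1, the product of Glo1, takes the first enzyme step in the glutathione-dependent removal of methylglyoxal, a reactive by-product of glycolysis. Glo1 has been studied in mice for its relation to anxiety-like behaviour. Dnah8 encodes a heavy chain of the axonemal dyneins, the motors of cilia and sperm flagella. Glp1r encodes the receptor for glucagon-like peptide 1, which acts through cAMP and is found in pancreatic beta cells and in parts of the brain. Btbd9 encodes a BTB domain protein, thought to bring substrates to Cul3 ubiquitin ligases, and its human counterpart lies at a locus associated with restless legs syndrome. When a segment is duplicated, each gene that it holds whole is gained with its promoter, while a gene that crosses an edge is gained only in part.

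The snRNA-seq libraries held 40331488 to 52947791 counts from 5968 to 8128 nuclei over the 14 cell types used, and the snATAC-seq libraries 85265745 to 114176027 counts from 4492 to 7092 nuclei over 9 cell types, all neuronal. The cell types are the names in the authors' tables, where Exc marks excitatory neurons, Inh interneurons and NN non-neuronal cells. All 22 marker genes measured were highest in their own type or group of types, among them Prox1 for dentate gyrus (Exc-DG) and Mog for oligodendrocytes (NN-ODC). The CA1 types shared their markers, and Exc-ENT, Exc-Gpc6 and Exc-Cdh12 had no marker of their own. Counts were present in D2 and at 0 in B6 for 8194 symbols, against 963 the other way round. The part that such a difference in the gene lists, or in mapping of reads, had in the results below was not tested. With so few libraries no exact permutation test can reach less than p = 0.33 (2 against 2), so calls rest on edgeR's quasi-likelihood test with Benjamini-Hochberg adjustment over all features of a fit, at adjusted p under 0.05. Since each library is a pool of animals, the spread between single animals is not seen.

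On the mm10 build and GENCODE vM21 annotation, Btbd9 (ENSMUSG00000062202) spans chr17:30215524-30576488 on the minus strand and Glo1 (ENSMUSG00000024026) chr17:30584936-30626871 on the same strand. Dnah8 (ENSMUSG00000033826) lies at chr17:30624354-30877365 on the plus strand, its first bases overlapping the annotated 5′ start of Glo1, and Glp1r (ENSMUSG00000024027) at chr17:30901817-30940791, also on the plus strand. Promoter sequences of 3 of the 4 genes were found in RefSeq for GRCm38.p6, the same build as mm10, and are printed so that the start sites with a peak (Glo1 and Glp1r) can be set beside the one without (Dnah8). Each runs 5′ to 3′ on the gene's own strand, from 250 bases before the RefSeq start site to 50 after it, with CpG dinucleotides in capitals.
Glo1, chr17:30612610-30612909, minus strand: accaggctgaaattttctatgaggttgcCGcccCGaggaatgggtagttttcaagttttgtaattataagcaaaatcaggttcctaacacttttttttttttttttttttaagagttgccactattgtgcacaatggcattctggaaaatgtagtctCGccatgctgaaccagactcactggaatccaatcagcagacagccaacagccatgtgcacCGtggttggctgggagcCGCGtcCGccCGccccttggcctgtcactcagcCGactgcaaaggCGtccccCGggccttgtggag
Dnah8, chr17:30626686-30626985, plus strand: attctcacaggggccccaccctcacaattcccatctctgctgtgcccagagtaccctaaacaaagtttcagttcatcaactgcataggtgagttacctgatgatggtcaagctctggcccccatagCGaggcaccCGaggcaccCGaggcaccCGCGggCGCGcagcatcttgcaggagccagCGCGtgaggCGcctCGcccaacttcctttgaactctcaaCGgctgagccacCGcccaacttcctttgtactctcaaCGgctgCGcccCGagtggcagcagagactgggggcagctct
Glp1r, chr17:30901617-30901916, plus strand: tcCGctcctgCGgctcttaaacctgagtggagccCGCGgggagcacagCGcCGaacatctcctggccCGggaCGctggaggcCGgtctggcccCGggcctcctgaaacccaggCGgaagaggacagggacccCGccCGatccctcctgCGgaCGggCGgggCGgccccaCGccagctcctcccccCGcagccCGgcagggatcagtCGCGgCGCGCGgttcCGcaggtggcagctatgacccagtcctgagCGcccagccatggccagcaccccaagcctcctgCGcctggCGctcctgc

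These windows held 11 CpGs at Glo1, 16 at Dnah8 and 29 at Glp1r, where the median of 32851 promoters of the same length was 7. As many CpGs or more were found in 41.4% of all promoters for Glo1, 33.0% for Dnah8 and 12.9% for Glp1r. A peak covered 223 of the 300 bases at Glo1 and all 300 at Glp1r, and no peak touched the window of Dnah8.

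Glo1 transcripts were slightly more abundant in D2. Summed over all nuclei, Glo1 had 582 and 587 counts in B6 and 633 and 683 in D2, which is 11.7 and 11.2 CPM in B6 (counts scaled to a library total of 1000000) against 12.9 and 16.5 CPM in D2. Both D2 libraries were above both B6 libraries, and D2 library 3 was the farthest from the rest. The log2 fold change (D2 over B6) was 0.36 ± 0.12 (SE, n = 2 and 2), a 1.28-fold difference, with an adjusted p of 0.0224 in edgeR. Over the 25445 transcripts tested, 30.6% were called higher in D2 and 15.9% lower, so a call for a single gene is common in this comparison. The call was lost with DESeq2 (adjusted p = 0.0798) and without D2 library 3, where the log2 fold change was 0.18 (adjusted p = 0.335). In this sum over all nuclei, a change in the share of a cell type and a change in level within cell types cannot be told apart.

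Across cell types, Glo1 was tested in 13 and called higher in D2 in 3, where 13.9% of all transcript tests over the 14 cell types were called higher and 9.91% lower. In the granule cells of the dentate gyrus, Exc-DG, its level was 12.6 and 12.4 CPM in B6 and 15.4 and 19.4 CPM in D2, with a fold change (log2) of 0.48 ± 0.15 (SE, adjusted p = 0.0239). Inh-MGE, the interneurons that derive from the medial ganglionic eminence, had 8.55 and 11.3 CPM in B6 and 16.1 and 21.4 CPM in D2 (log2 fold change 0.88 ± 0.25, adjusted p = 0.019). The strain difference was 1.51 ± 0.47 on the log2 scale (adjusted p = 0.0373) in NN-VLMC, vascular and leptomeningeal cells, from 3 and 10 counts in B6 and 24 and 20 in D2. D2 exceeded B6 without overlap in 8 of 14 cell types and the strains overlapped in 6, while 32.4% of all transcript tests had D2 above without overlap. In Exc-CA3 and Exc-CA1-Galntl6 the means were nearly equal, at 9.75 and 9.64 CPM and at 9.17 and 9.24 CPM for B6 and D2. The 3 calls were reduced to 1 without B6 library 2 and to 0 without D2 library 3 in edgeR (2 at an unadjusted p under 0.05), and DESeq2 made 0 calls (1 at an unadjusted p under 0.05).

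Glo1 levels were highest outside neurons in both strains. In B6 the mean was 23.4 CPM in astrocytes (NN-Astro), 21.3 in oligodendrocytes and 18.5 in microglia (NN-MGC), against 5.68 to 12.5 CPM in the neuronal types. In D2 it was 59.1 CPM in NN-VLMC and 28.1 to 28.9 CPM in oligodendrocytes, astrocytes and microglia, against 9.22 to 18.7 CPM in neurons. Of 13 neighbouring pairs in the order of levels, 10 in B6 and 11 in D2 overlapped between their libraries, so most ranks are not separated. The test for a difference among cell types gave an adjusted p of 2.47e-13, where 92.7% of 21520 transcripts differed among cell types.

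**Figure D1:**
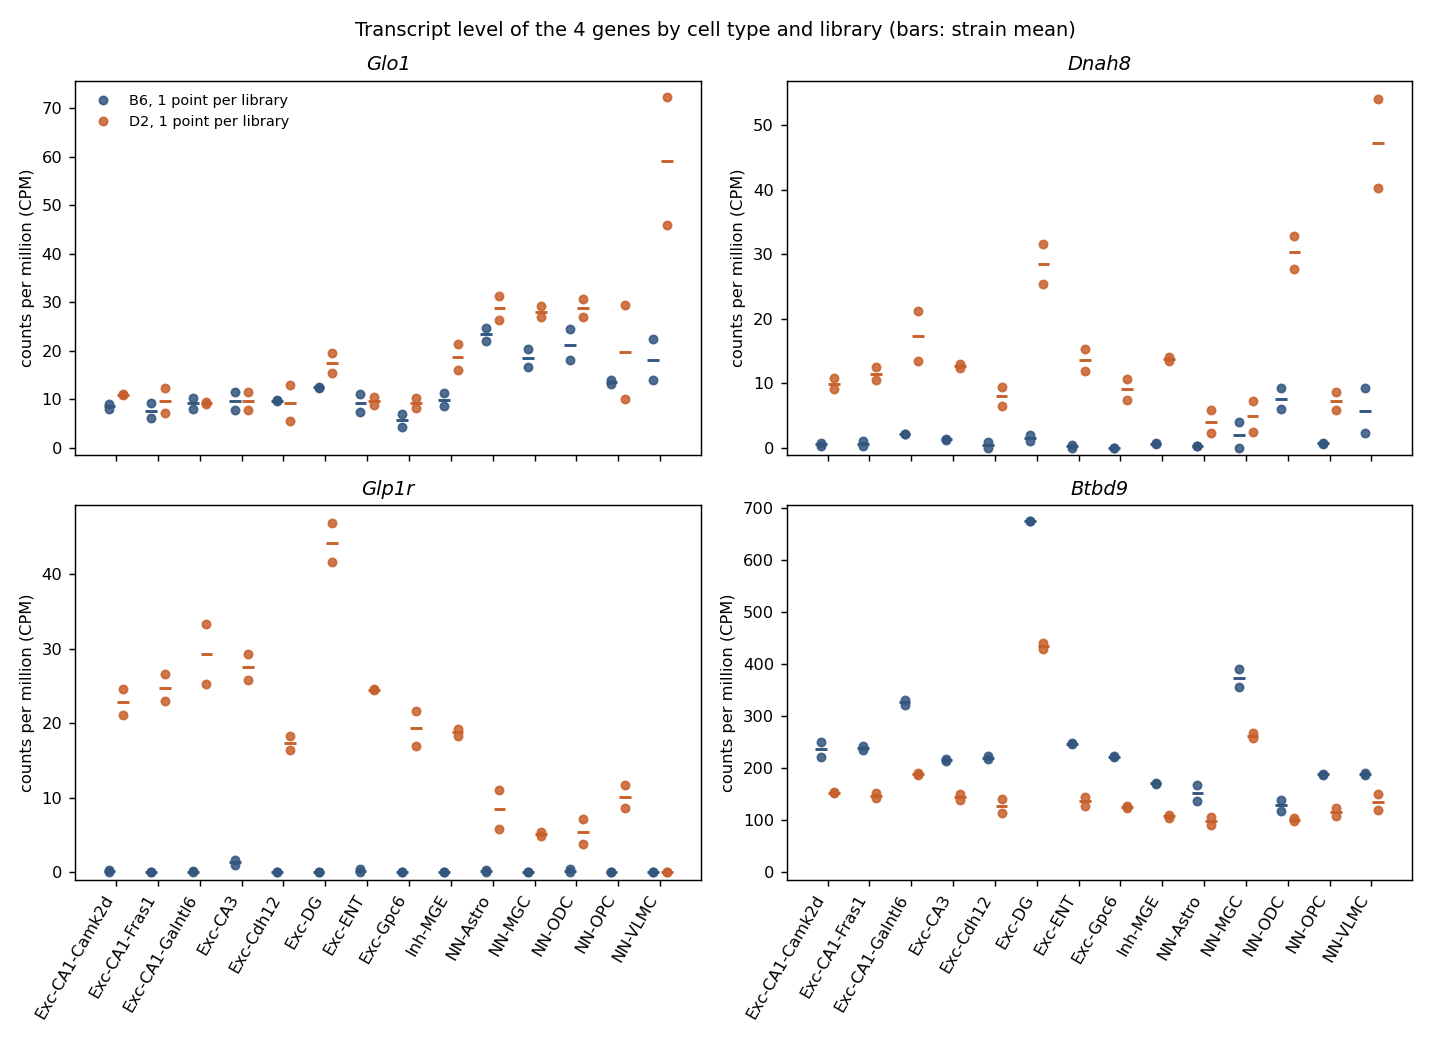
Transcript level of Glo1, Dnah8, Glp1r and Btbd9 in CPM (vertical axes, linear) in each of 14 cell types (horizontal axis), with 1 point per library and a bar at the strain mean of 2 libraries. Glo1 overlapped between strains in 6 types, Dnah8 and Glp1r were near 0 in most B6 types, and Btbd9 was lower in D2 in all 14.

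Dnah8 transcripts were about 11 times as abundant in D2. There were 76 and 66 counts over all nuclei in B6 and 699 and 707 in D2, or 1.53 and 1.26 CPM against 14.3 and 17.1 CPM. The strains were far apart on this scale and the libraries of a strain close together, with a log2 fold change of 3.49 ± 0.15 (SE, adjusted p = 5.35e-11) and a fold of 11.2. Among the 21293 transcripts with counts in both strains, 80 had a larger increase. Over all 25445 transcripts tested, which include symbols at 0 in B6, 4074 had a larger one.

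By cell type, Dnah8 was called higher in D2 in 10 of the 10 types tested, where 13.9% of all transcript tests were called higher. It passed the filter on low counts mainly through its D2 counts, so the share called says little by itself. Both D2 libraries were above both B6 libraries in 13 of 14 types, where 32.4% of all transcript tests had D2 above without overlap. The exception was microglia, with 2 and 0 counts in B6 and 1 and 4 in D2. In oligodendrocytes, the type with the highest B6 level, Dnah8 was at 9.2 and 6.01 CPM in B6 and 27.8 and 32.8 CPM in D2 (log2 fold change 2.03 ± 0.31, adjusted p = 1.58e-05). In Exc-DG it was at 2.04 and 1.06 CPM in B6 and 25.4 and 31.6 CPM in D2 (log2 fold change 4.20 ± 0.23, adjusted p = 3.84e-09). The 6 types with more than 3 B6 counts had log2 fold changes of 2.03 to 4.28.

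Where B6 counts were fewer, the size of the difference was poorly bounded. In Exc-ENT, 0 and 2 counts in B6 stood against 50 and 50 in D2, a ratio of 61.1 with a 95% counting interval of 16.5 to 512. In Exc-Gpc6, with 0 counts in both B6 libraries and 26 and 11 in D2, Dnah8 was at least 13.1-fold higher in D2, taking 3 counts over the B6 group as the limit that a count of 0 allows. These intervals and limits cover counting error only. In D2 the level was highest in NN-VLMC, at 40.2 and 54.1 CPM, then in oligodendrocytes at a mean of 30.3 CPM and Exc-DG at 28.5 CPM, whose libraries overlapped.

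Glp1r showed the widest strain difference of the 4 genes. Over all nuclei it had 15 and 9 counts in B6 and 1171 and 1098 in D2, which is 0.302 and 0.172 CPM against 23.9 and 26.5 CPM. Transcripts of Glp1r were thus close to absent from the B6 counts and well counted in both D2 libraries. Their log2 fold change was 6.73 ± 0.18 (SE, adjusted p = 2.28e-13 in edgeR), a fold of 106. Among the transcripts with counts in both strains, 2 of 21293 had a larger increase. Over all 25445 transcripts tested, which include symbols at 0 in B6, 3806 had a larger one.

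The few Glp1r counts of B6 were not spread evenly. Exc-CA3, the pyramidal cells of field CA3, held 18 of the 24, or 75.0%, while it held 12.6% of all B6 counts. Its level there was 1.7 and 1.03 CPM in B6 and 29.3 and 25.8 CPM in D2 (log2 fold change 4.29 ± 0.26, adjusted p = 8.5e-10). In D2 the counts followed another order, with Exc-DG highest at 41.6 and 46.8 CPM and holding 33.0% of the Glp1r counts against 18.9% of all counts.

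Glp1r was called higher in D2 in 11 of the 11 cell types tested, where 13.9% of all transcript tests were called higher. Again the filter let it through by way of D2. In 8 of 14 types no B6 count was seen in either library. In Exc-DG, 0 and 0 counts in B6 against 372 and 376 in D2 made it at least 317-fold higher in D2. The same limit was 67.6-fold in Exc-CA1-Fras1, 46.4-fold in Inh-MGE and 25.9-fold in Exc-Gpc6. Non-neuronal types had lower D2 levels than the neuronal types, with means of 10.2 CPM in oligodendrocyte precursors (NN-OPC), 8.46 in astrocytes, 5.45 in oligodendrocytes and 5.19 in microglia, against 17.3 to 44.2 CPM in neurons. In NN-VLMC it was at 0 in all 4 libraries, which allows up to 3.75 CPM in D2 at that depth. Requiring counts in both strains left 5 cell types with a call, since the types at 0 in B6 drop out.

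Btbd9 went the other way and was lower in D2. It had 16282 and 16946 counts over all nuclei in B6 and 9564 and 8072 in D2, or 328 and 323 CPM against 195 and 195 CPM. The 2 libraries of a strain nearly coincided, and the log2 fold change was -0.74 ± 0.07 (SE, adjusted p = 1.96e-07). Both D2 libraries were below both B6 libraries in 14 of 14 cell types, where 26.3% of all transcript tests had D2 below without overlap.

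Over all 14 cell types, each tested for Btbd9, log2 fold changes ran from -0.86 in Exc-ENT to -0.34 in oligodendrocytes. Of these types, 12 were called lower in D2, where 9.91% of all transcript tests were called lower. The exceptions were oligodendrocytes, with 139 and 118 CPM in B6 and 104 and 98.5 CPM in D2 (adjusted p = 0.122), and NN-VLMC, at a log2 fold change of -0.45 ± 0.26 (adjusted p = 0.386). Exc-DG had the highest level in both strains, at 674 and 676 CPM in B6 and 429 and 441 CPM in D2, and held 43.8% of the Btbd9 counts of B6 and 41.8% of those of D2. Microglia came next, with means of 373 CPM in B6 and 263 CPM in D2. The libraries of Exc-DG did not overlap those of microglia in either strain, and the cell type test gave an adjusted p of 5.97e-34.

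Whether the strain difference varied over cell types was tested in 1 fit with library and cell type as terms. Glp1r (adjusted p = 0.000341) and Dnah8 (adjusted p = 0.00154) passed the threshold, and a variation was not detectable for Glo1 (adjusted p = 0.294) or Btbd9 (adjusted p = 0.477), where 13.9% of 21520 transcripts were called. Without B6 library 2 neither passed, with adjusted p = 0.0682 for Glp1r and 0.08 for Dnah8. Columns of one library share its nuclei preparation, and types at 0 in B6 enter this test with folds that the counts do not bound.

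**Figure D2:**
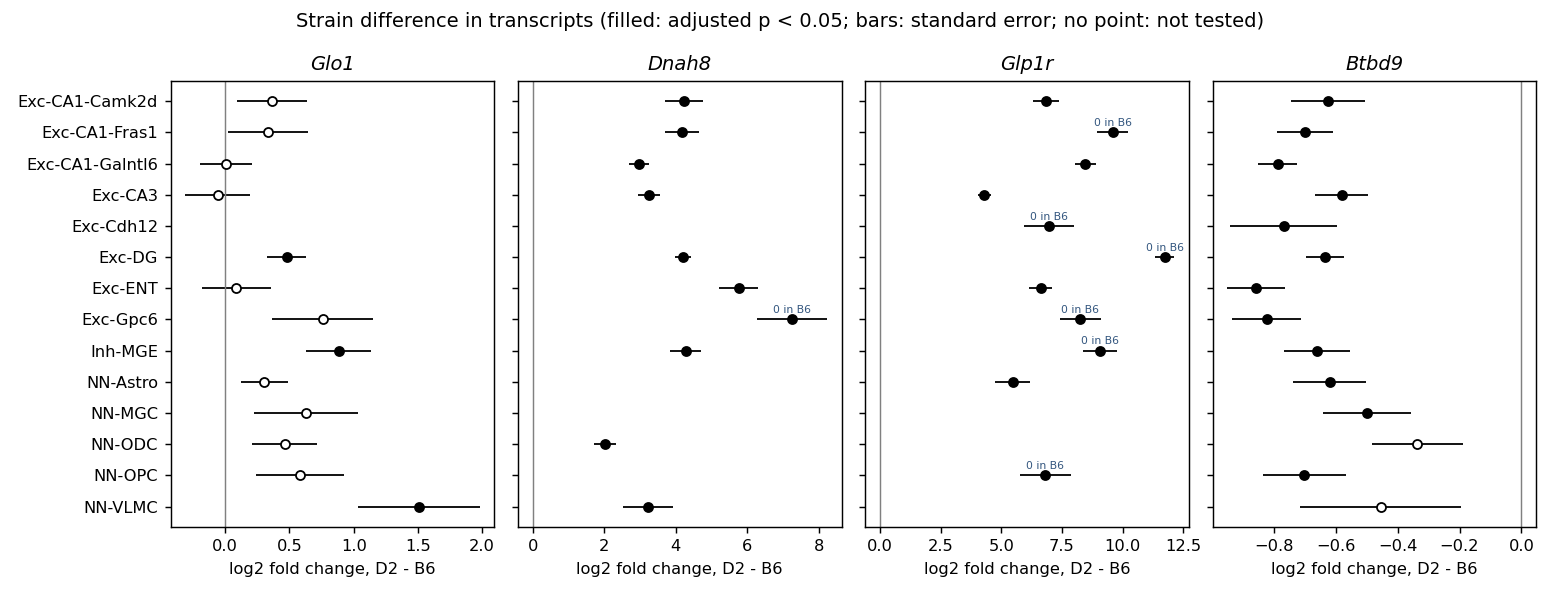
Log2 fold change of transcripts, D2 over B6 (horizontal axes, a separate scale for each gene), in each cell type, with bars at 1 standard error, filled points at adjusted p under 0.05 and no point where the gene was not tested. Btbd9 lies below 0 in all 14 types, from -0.86 to -0.34, and points marked "0 in B6" are fitted values that the counts bound from below only.

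The peaks over the 4 genes gave a reading of chromatin accessibility at the locus. Over all nuclei, 73 of the 143 peaks were called higher in D2 and 2 lower, where 5.42% of all 300819 peaks were called higher and 5.33% lower. All 5 Glo1 peaks and 29 of 36 Dnah8 peaks were higher. Glp1r had 5 peaks higher and 2 lower of 10, and Btbd9 had 34 higher of 92. Dnah8 had 36 of 36 peaks with a log2 fold change above 0, at a median of 0.89, and Glo1 5 of 5 at a median of 0.69, where the median of all peaks was 0.001.

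Placed along the chromosome, the higher peaks were dense over one stretch. Taking the run around the Glo1 start site where the running median of 11 peaks stayed above 0.5 on the log2 scale, a rule set after the values were seen and given as a description, the stretch ran from chr17:30452480 to chr17:30924012 and measured 471.5 kb. All 84 peaks in it had a log2 fold change above 0 and 76 were called higher, with a median of 0.87, or 1.82-fold. The 246 peaks on the left, up to 1 Mb beyond Btbd9, had a median of -0.05, with 14 called higher and 9 lower, and the 170 on the right a median of -0.03, with 5 higher and 12 lower. At the left edge the last 5 peaks outside had log2 fold changes of -0.20, -0.20, -0.07, -0.15 and 0.56, and the first 5 inside 0.86, 0.06, 0.82, 0.92 and 0.87. At the right edge the last 5 inside ranged from 0.63 to 1.72 and the next 5 outside from -0.64 to -0.16.

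The stretch held Glo1 and Dnah8 whole, the first 34.4% of Btbd9 with its start site, and the first 56.9% of Glp1r. It was drawn from these same peak values, so a contrast between peaks inside and outside it is largely set by the rule. Inside it, 33 of the 34 Btbd9 peaks were higher in D2, at a median log2 fold change of 0.85, and outside it 1 of 58, at a median of -0.08. For Glp1r, 5 of 5 peaks inside were higher, at a median of 1.27, and 0 of 5 outside, also at an unadjusted p under 0.05 in edgeR and DESeq2. The 2 called lower lay over exons at its 3′ end, with log2 fold changes of -0.64 (adjusted p = 0.015) and -0.58 (adjusted p = 0.00561) in edgeR, and neither was called by DESeq2. The number of copies and the accessibility of each copy cannot be told apart from these counts.

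**Figure D3:**
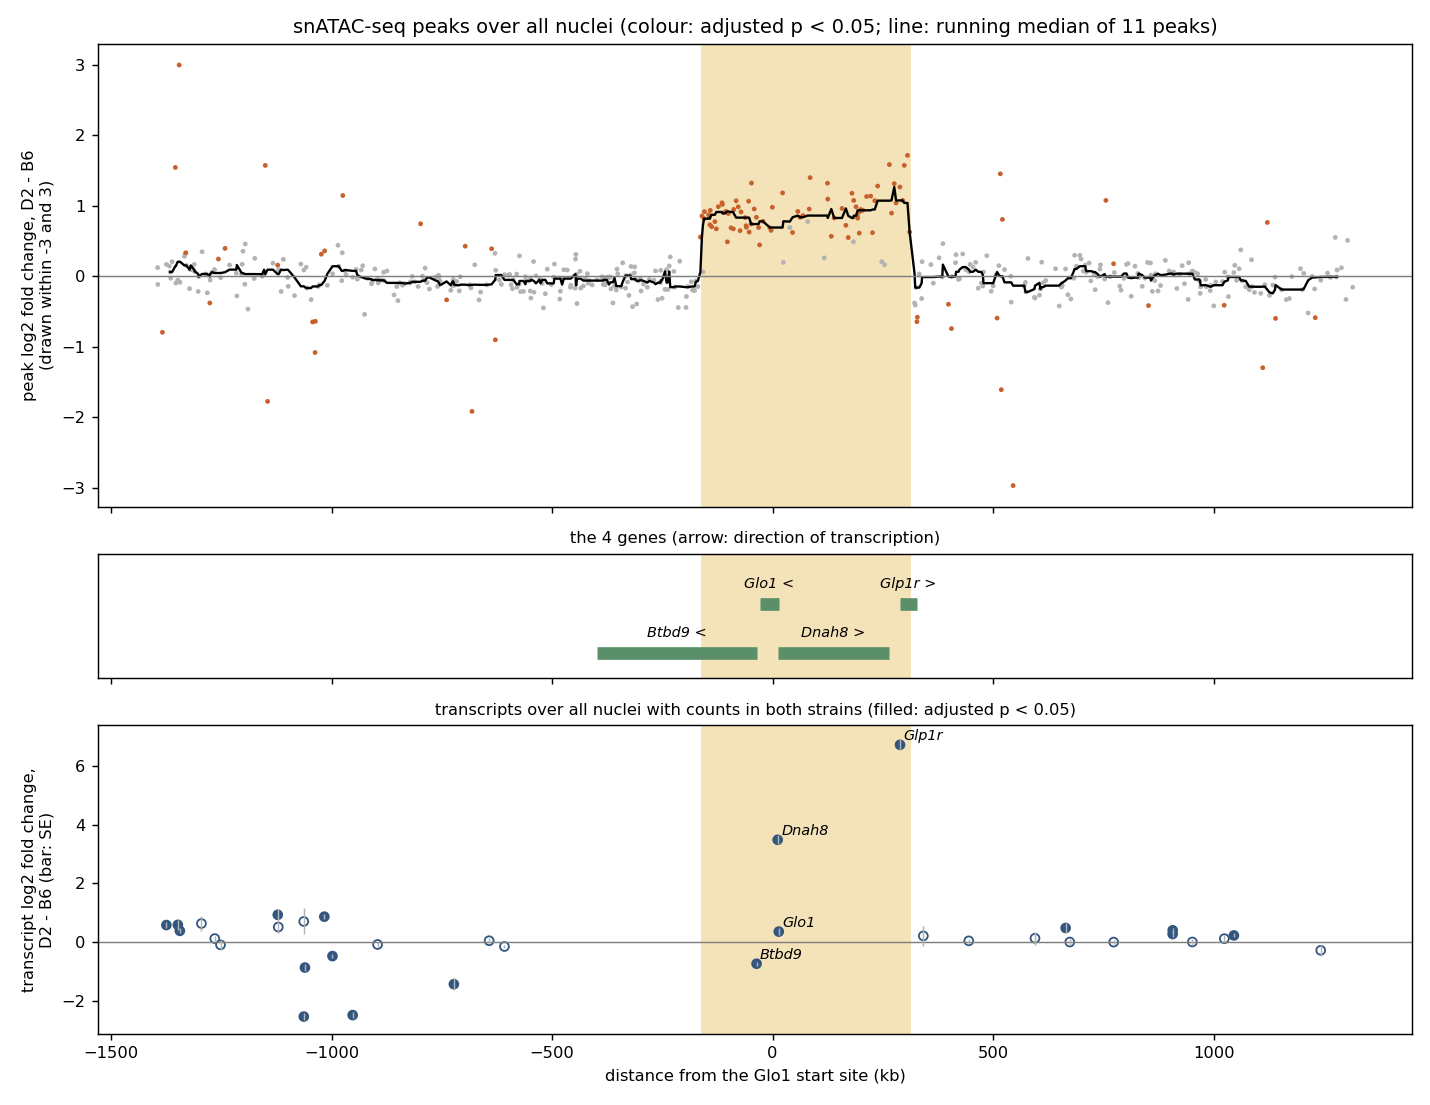
Strain difference along the locus against distance from the Glo1 start site (horizontal axis, kb), with the log2 fold change (D2 over B6) of 500 peaks on top, coloured at adjusted p under 0.05, the 4 genes in the middle and the transcripts with counts in both strains at the bottom, with bars at 1 standard error. The shaded stretch of 471.5 kb, drawn from these peak values, has a peak median of 0.87 against -0.05 and -0.03 beside it. The 4 transcripts over the stretch go from -0.74 to 6.73.

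Peaks over start sites were found for 3 of the 4 genes. RefSeq and GENCODE place the starts of Glo1 and Btbd9 differently, and the Glo1 peak lies over the RefSeq start only, the Btbd9 peak over the GENCODE start only and the Glp1r peak over both. The peak over the Glo1 start site, chr17:30611749-30612832, had 1532 and 1629 counts in B6 and 3099 and 4037 in D2, which is 17.8 and 17.5 CPM against 34.0 and 35.6 CPM. The difference, 0.98 ± 0.06 on the log2 scale (SE, adjusted p = 5.64e-24), was large against the spread of the libraries. The peak over the Btbd9 start site, chr17:30575521-30576755, had 26.9 and 26.4 CPM in B6 and 46.1 and 49.0 CPM in D2 (log2 fold change 0.84 ± 0.05, adjusted p = 1.71e-22). This site was more accessible in D2 while its transcripts were fewer. The peak over the Glp1r start site, chr17:30900954-30902165, had 244 and 220 counts in B6 and 484 and 807 in D2, a log2 fold change of 1.27 ± 0.12 (adjusted p = 7.12e-14). No peak lay over either annotated start of Dnah8.

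Away from the start sites, the largest changes called lay in introns and exons. At Glp1r an intronic peak at chr17:30918611-30918818 had 23 and 26 counts in B6 and 65 and 121 in D2 (log2 fold change 1.72), and another at chr17:30910868-30912129 had 175 and 193 against 471 and 795 (1.58). Over the 3′ end of Dnah8, the peak at chr17:30877220-30878095 had 92 and 108 counts in B6 and 293 and 394 in D2 (1.59), and an intronic one at chr17:30697666-30698244 had 24 and 43 against 90 and 112 (1.40). In the first part of Btbd9, the intronic peak at chr17:30564585-30565230 had 132 and 135 counts in B6 and 290 and 481 in D2 (1.32), and that over an exon at chr17:30529677-30530786 had 610 and 718 against 1249 and 1964 (1.07). For Glo1 the next largest, over an exon at chr17:30590332-30591440, had 527 and 502 counts against 870 and 1156 (0.78). The counts of the strains did not overlap in any of these peaks. The peaks were picked from the called ones for the size of their change, so this lack of overlap is largely set by the choice.

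The rise over the locus was seen in each of the 9 neuronal types. The Glo1 start-site peak was called higher in D2 in 9 of 9 types, with log2 fold changes of 0.84 to 1.07, and the Btbd9 start-site peak in 9 of 9, from 0.75 to 0.94. The Glp1r start-site peak was called in 6 of 9, with its largest value in Exc-DG, where 48 and 25 counts in B6 stood against 72 and 198 in D2 (1.90 ± 0.20, adjusted p = 3.08e-17). Over the 9 types together, 224 tests of member peaks were called higher and 3 lower. Of all peak tests by cell type, 1.64% were called higher and 1.56% lower. The share of tested member peaks called higher ran from 2.94% in Exc-Cdh12 to 43.4% in Exc-DG. Of all peaks tested in those types, 0.23% and 3.39% were called higher. Without D2 library 3 the 224 became 87.

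The same rule found a stretch in every type. Its median log2 fold change was 0.75 to 1.09 in 8 of them, with lengths of 456.5 to 471.5 kb, and in Exc-ENT it was shorter, at 88.0 kb and a median of 0.57. Over the stretch found from all nuclei, the peak medians ran from 0.75 in Inh-MGE and Exc-ENT to 1.00 in Exc-Cdh12, so Exc-ENT did not stand apart by that measure. Differences among the types were not tested.

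**Figure D4:**
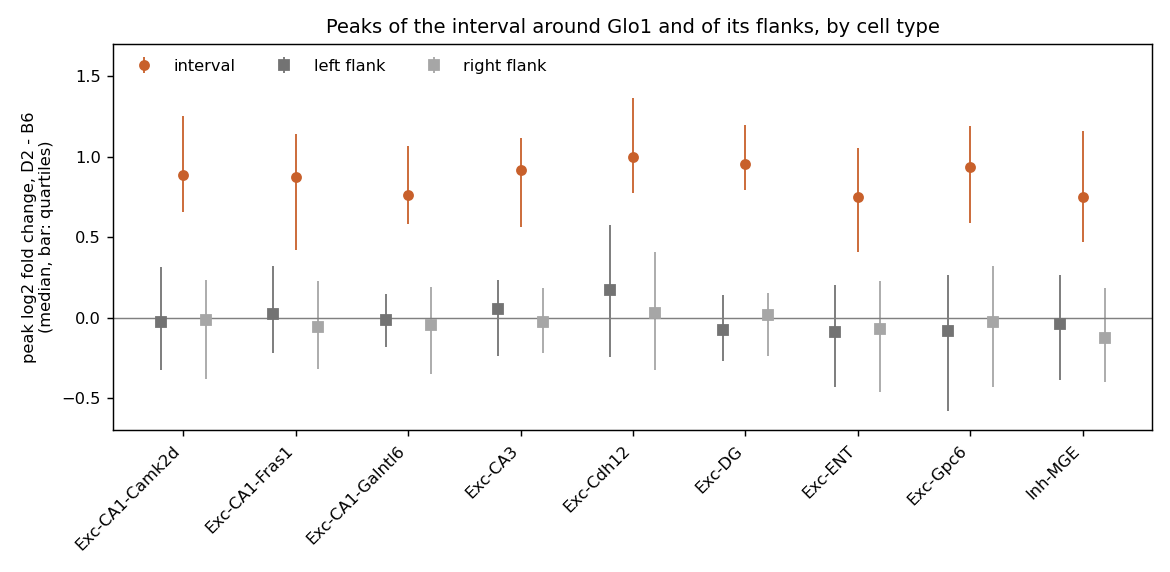
Median log2 fold change of peaks (D2 over B6, vertical axis, bars from the lower to the upper quartile) in each of 9 cell types (horizontal axis), for the stretch around Glo1 and for the flanks to its left and right. The stretch, drawn from the counts of these types summed, has medians of 0.75 to 1.00 in all 9 types, and the flanks lie near 0.

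Summed over all peaks of a gene, accessibility was higher in D2 for each of the 4, where 6.89% of 36575 genes were called higher over all nuclei. For Glo1 the sum was 32 and 30.3 CPM in B6 and 51.5 and 57.6 CPM in D2 (log2 fold change 0.81 ± 0.04, SE, adjusted p = 1.19e-17). Dnah8 had 58.8 and 51.7 CPM in B6 and 85.1 and 98.3 CPM in D2 (0.73 ± 0.05, adjusted p = 2.56e-15). Glp1r had 15.7 and 13.6 CPM in B6 and 20.3 and 25.9 CPM in D2 (0.66 ± 0.07, adjusted p = 2.01e-09), and Btbd9, most of whose peaks lie outside the stretch, 303 and 293 CPM against 361 and 408 CPM (0.37 ± 0.04, adjusted p = 2.25e-09). By cell type the gene sum was called higher in 9 of 9 types for Glo1, Dnah8 and Btbd9 and in 6 of 9 for Glp1r, where 2.38% of all such tests were called higher. The 6 became 3 without B6 library 3 and 3 without D2 library 3, where Exc-CA1-Camk2d, Exc-ENT and Exc-Gpc6 were no longer called, and with 1 library left out the others were called in 7 to 9 types.

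Set beside these sums, the transcripts of the 4 genes differed in both size and sign. Accessibility differed by 0.37 to 0.81 on the log2 scale. The transcript values were 0.36 for Glo1, below its accessibility value, 3.49 for Dnah8 and 6.73 for Glp1r, far above, and -0.74 for Btbd9, in the opposite direction. The transcript values sum 14 cell types, non-neuronal ones among them, while the accessibility values sum 9 neuronal types only. The transcript and accessibility libraries are also separate preparations, and only the snRNA-seq nuclei were sorted for a fixed share of neurons. The assays were therefore not tested against each other.

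**Figure D5:**
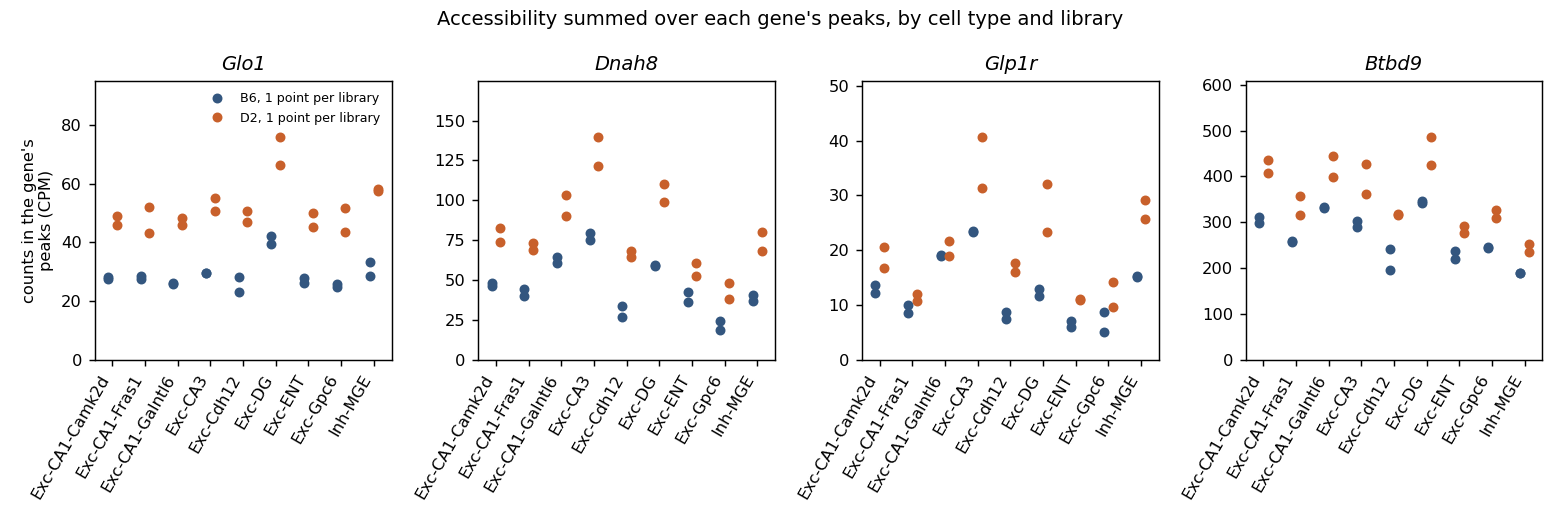
Accessibility summed over the peaks of Glo1, Dnah8, Glp1r and Btbd9, in CPM (vertical axes from 0, a separate scale for each gene), in 9 cell types (horizontal axis) with 1 point per library. For Glo1, Dnah8 and Btbd9 the D2 points lie above the B6 points in all 9 types, and for Glp1r the sum was called higher in 6.

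Of 95 other annotated genes within 1 Mb, 35 were tested over all nuclei, with 13 higher and 6 lower in D2. These shares are near the 30.6% higher and 15.9% lower of all transcripts, so the counts show nothing particular to the neighbourhood. Inside or across the stretch of higher peaks only Gm9874 could be tested, a transcript with 0 and 0 counts in B6 and 234 and 196 in D2. To the left of it, Pim1, a serine/threonine kinase, was at a log2 fold change of 0.93, Tbc1d22bos at 0.87, Ppil1 at 0.59, Cpne5 at 0.58 and BC004004 at 0.38. The genes lower in D2 there were Tbc1d22b at -2.54, Cmtr1, an mRNA cap methyltransferase, at -2.49, Gm16758 at -1.44, Tmem217 at -0.87 and Rnf8, a ubiquitin ligase of the DNA damage response, at -0.48. Gm28052 and Gm28043, with counts in D2 only, overlap Tbc1d22b, Rnf8 and Cmtr1 on the same strand, so how reads were split among these genes is uncertain. To the right, Rsph1 was at 0.48, Ndufv3 at 0.40, Wdr4 at 0.27 and U2af1 at 0.23. Gm38099 there had counts in D2 only and AC166172.1 in B6 only. The calls of Ppil1, Rsph1, Wdr4 and U2af1 were lost with DESeq2 (adjusted p = 0.061 to 0.195). Of these 18 neighbours outside the stretch, 17 had a gene-level accessibility value (counts summed over the peaks of a gene), with log2 fold changes of -0.09 to 0.11.

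Overlapping annotation bears on the members too. AC174471.1 is annotated on the minus strand across chr17:30459502-30923831, and so over the first part of Btbd9 and all of Glo1. It had no row of that name in the snRNA-seq table. That table also holds symbols that GENCODE vM21 lacks, such as Gm50250, so the gene may have a row under another name. The part of AC174471.1 in the Btbd9 and Glo1 counts was not tested. A row named Glo1-ps had 0 and 0 counts in B6 and 5 and 5 in D2, and its bearing on the Glo1 values was not tested.

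Other genes of the same pathways were called in both directions, at shares near the 30.6% higher and 15.9% lower of all transcripts in the longest list. In this list of 24 other genes of methylglyoxal and glutathione metabolism, 7 were higher in D2, 5 lower and 12 not called, with a median log2 fold change of 0.08 beside 0.09 for all transcripts. Hagh, the hydrolase that takes the second glyoxalase step, was at 54.3 and 47.2 CPM in B6 and 62 and 61.4 CPM in D2 (0.28 ± 0.08). Aldh9a1, an aldehyde dehydrogenase, rose by 0.59, Park7, the gene of the stress protein DJ-1, by 0.40, the glycolytic enzymes Tpi1 and Gapdh by 0.40 and 0.22, glutathione reductase Gsr by 0.38 and thioredoxin reductase Txnrd1 by 0.26. The lower genes were Gpx4, the lipid peroxide reductase, at -0.57, Glod4 at -0.39, the glutathione synthesis enzymes Gss at -0.34 and Gclc at -0.21, and Aldoc at -0.25. With DESeq2, Gapdh, Txnrd1, Gclc and Aldoc were not called (adjusted p = 0.0614 to 0.126).

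Among 14 other axonemal dynein heavy chains, 5 were higher in D2 and 3 lower, at a median of 0.22. Of all transcripts, 30.6% were called higher and 15.9% lower. Dnah6 was the farthest, with 4.61 and 4.79 CPM in B6 and 26.3 and 22.9 CPM in D2 (2.39 ± 0.11). Dnah11 was at 0.96, Dnah17 at 0.79, Dnah14 at 0.70 and Dnah7a at 0.39, while Dnah7b was at -0.89, Dnah7c at -0.76 and Dnah9 at -0.35. The call of Dnah7a was lost with DESeq2 (adjusted p = 0.22). Reads of Dnah7a, Dnah7b and Dnah7c, which are close copies, may have been split among them.

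Of 8 other genes for glucagon family peptides and receptors, 5 were tested, 0 were higher in D2 and 4 lower, at a median of -0.55. These are few genes to set beside the 30.6% higher and 15.9% lower of all transcripts. With DESeq2, of 7 with an adjusted p, 0 were higher and 3 lower, and at an unadjusted p under 0.05 both tools had 0 higher. Gcg, the precursor gene of glucagon-like peptide 1, had 17 and 24 counts in B6 and 8 and 8 in D2 (-1.17 ± 0.39), a call lost with DESeq2 (adjusted p = 0.336). The receptor genes Gipr, at -0.98, and Glp2r, at -0.45, and the peptidase gene Dpp4, at -0.55, were also lower. Of 8 other Cul3 partners and restless legs genes, 7 were tested, with 2 higher in D2 and 2 lower, at a median of -0.14. They too are few beside the same shares. Rbx1 (0.28) and Nedd8 (0.30) were higher, and Cul3 (-0.28) and the phosphatase gene Ptprd (-0.22) lower. The call of Rbx1 was lost with DESeq2 (adjusted p = 0.0607).

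The pattern of each gene over the 14 cell types was compared with that of 13368 genes at a mean of at least 5 CPM, as Pearson's r of log2 CPM over the B6 means, as a description. Closest to Glo1 were Kyat3 (r = 0.96), Rab10 (0.958) and Rpl35a (0.957), and close to Btbd9 were Gm50250 (0.962) and Vps13c (0.89). Gm50250 was again closest to Btbd9 in D2, at r = 0.913, with 4468 and 5125 counts over all nuclei in B6 and 5293 and 4716 in D2. Its position is not given by the annotation used here. For Dnah8 (Trmo, Crybg3 and Dcp1a, r = 0.904 to 0.943) and Glp1r (Adgrf5, Pex7 and Serpina1b, r = 0.894 to 0.914) the B6 values rest on means of 1.71 and 0.152 CPM and so carry little information. In the D2 means, a comparison added after the data were seen, Glp1r was closest to Dpf1 (r = 0.953), Fbxl16 (0.95) and Porcn (0.946), Dnah8 to Tpst1 (0.877), Zfp280d (0.856) and Gm37447 (0.845), and Glo1 to Ngly1 (0.969), Etfb (0.959) and Ddx17 (0.957). All points share libraries and differ in depth between cell types.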

How the data were processed

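The tables hold raw counts, added up by the authors for each cell type and library and deposited without normalization. Before that, snRNA-seq reads were aligned with Cell Ranger 6.0.2 (intronic reads kept), those of snATAC-seq with Cell Ranger ATAC 2.0.0. The genome was mm10 for the B6 libraries, and for the D2 libraries a copy of mm10 carrying the D2 SNPs. Doublets had been removed with DoubletFinder, and the snATAC-seq peak set merges MACS calls of the single samples. The gene annotation release of the count tables is not given in the sources used here. Nuclei for snRNA-seq, but not for snATAC-seq, were sorted on NeuN.

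Column names carry the library numbers 2 and 3 and the labels the replicate numbers 1 and 2, so columns were assigned to strains only. Left out were 12 snRNA-seq columns (Inh-CGE, Inh-Lamp5 and CR-CR) and 24 snATAC-seq columns (Inh-CGE, Inh-Lamp5 and the non-neuronal types), for which no column-to-sample map was made.

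Counts were tested with edgeR 4.0.16 (R 4.3.3; TMM, quasi-likelihood F test, filterByExpr for transcripts, at least 10 counts over the 4 libraries for peaks and gene sums), per cell type and over all nuclei, with Benjamini-Hochberg adjustment over all features of a fit. CPM are scaled by TMM. The standard error of a log2 fold change is its size divided by the square root of F. DESeq2 1.42.0, the authors' test, was an alternative, with other scalings, filters, a replicate block and each library left out. The fits were tested on simulated data with 200 changed features. Members and gene lists were chosen with earlier results of these data known. Named genes were the members, every other gene within 1 Mb called over all nuclei, the called genes of 4 lists, the 3 genes most like each member over cell types (1 of them is not reported here), start-site peaks and the 3 called peaks with the largest change per member.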

Additional observations from a re-analysis of the deposited data

Results flagged for a closer look

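In a test of whether the strain difference varied among cell types, Dnah8 and Glp1r passed the threshold, as did 13.9% of 21520 transcripts. B6 counts were 0 in 8 of 14 types and 1 to 3 in another 5 for Glp1r, and 3 or fewer in 8 for Dnah8, so the test rests partly on folds that the counts do not bound, and it does not show by itself that the difference varied. For Dnah8 the adjusted p was 0.00154 (edgeR, 13 coefficients, 26 residual degrees of freedom). Its log2 fold change was 2.03 in oligodendrocytes and 4.20 in Exc-DG, and in each of the 10 types tested it was higher in D2. For Glp1r the adjusted p was 0.000341. Its log2 fold change was 4.29 in Exc-CA3, the 1 type with more than 3 B6 counts, and it was at least 317-fold higher in D2 in Exc-DG, where B6 had 0 counts. Both calls were lost without B6 library 2, at adjusted p = 0.08 for Dnah8 and 0.0682 for Glp1r. No group had 4 or more samples, so single libraries were not screened for outlying values.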

How the results depend on the processing

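Of the main results, 158 recomputed values kept their direction and call or stayed within 1.5 times the reported count, 14 counts moved and 4 values lost their call. With DESeq2, the log2 fold change of Glo1 over all nuclei was 0.35 and no longer called, Glo1 was called in 0 cell types against 3, 0 member peaks against 2 were lower over all nuclei (2 at an unadjusted p under 0.05), 3 against 5 methylglyoxal and glutathione genes were lower, and 1 against 2 Cul3 partners and restless legs genes was higher. Requiring counts in both strains left Glp1r called in 5 cell types against 11, by construction. Within 500 kb rather than 1 Mb, 2 other genes were higher and 1 lower. Leaving out one library at a time, with the lone library assumed to vary like the others, Glo1 over all nuclei ranged from 0.18 to 0.51 and its calls by cell type from 0 to 3. The interaction's adjusted p ranged from 0.00123 to 0.0800 for Dnah8 and from 0.00109 to 0.0682 for Glp1r. Member peaks called by cell type ranged from 87 to 170 higher against 224, and from 1 to 2 lower against 3, and those lower over all nuclei from 1 to 4 against 2. For other values, 672 were the same, 38 lost and 2 gained a call, 4 moved and 9 changed sign. The sign changes came from leaving out 1 library, none of them called. The ranges were -0.089 to 0.71 for Glo1 transcripts in Exc-CA1-Fras1, -0.15 to 0.19 (-0.034 without D2 library 2) in Exc-CA1-Galntl6, -0.34 to 0.26 (0.22 without D2 library 2) in Exc-CA3, -0.18 to 0.41 (-0.052 without D2 library 2) in Exc-ENT and -0.43 to 1.11 in NN-OPC. For gene-level accessibility of Glp1r in Exc-CA1-Galntl6 the range was -0.0062 to 0.19. Apart from what each alternative's construction sets, the cause was not tested. Low counts limited the comparison for Dnah8 and Glp1r in B6, with 142 and 24 in all. The median log2 fold change of all transcripts was 0.09 with TMM, 0.08 with RLE and 0.13 with library totals only. Over all transcripts with at least 1 count it was 0.16 with TMM and 0.15 with DESeq2. All 14 cell types had at least 100 nuclei in each strain, so restricting the interaction to such types left it as it was.

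No pairing by library number was detectable, as the differences between libraries 2 and 3 correlated at 0.003 across strains for transcripts and -0.034 for peaks. Whether same-numbered libraries were prepared together cannot be told from these values. With the replicate block added, Glo1 over all nuclei had a log2 fold change of 0.35 (adjusted p = 0.0239) and Btbd9 in microglia lost its call (adjusted p = 0.0538). No fit of the interaction with the block was made, since library was already a term.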
